A study of Mus musculus with 2 samples.

Results

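The synaptic vesicle and transmitter release genes are a set of 38 named genes that encode the machinery with which a neuron loads transmitter into vesicles and releases it. Members were taken as the probe sets of the deposited table whose platform annotation gives a single gene symbol and whose symbol is in the set, out of 19938 genes with such a probe set. Of the 38 genes, 37 were measured. The only probe set that carries the symbol Vamp2, a vesicle SNARE, was also assigned to another gene, so Vamp2 was not analysed here. The set was drawn up by function, with earlier results of these data known.

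The study compared a pair of cell groups, each represented by a single array. In the first, neural precursor cells from the forebrain of Jcl:ICR mouse embryos at E11.5 carried an HMGN1 retrovirus, and in the second the same kind of cells carried a control retrovirus. Cells of both groups had been grown with FGF2 and EGF, were replated 3 days after infection and were then held for 1 day without these mitogens before total RNA was extracted. HMGN1 is a nucleosome-binding chromatin protein, and the comparison asks how an excess of it alters the transcripts of precursors that have just lost their growth factors. The labels do not say how many embryos or cultures went into each RNA sample, and with 1 array per virus no test between the groups was possible.

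Neurotransmitter is released when a synaptic vesicle docked at the active zone fuses with the plasma membrane. Fusion is driven by SNARE proteins of the vesicle and of the plasma membrane that zip together, is primed by UNC13 and RIM proteins, and is triggered when calcium binds synaptotagmin while complexin holds the SNARE complex. Afterwards the complex is taken apart by NSF and SNAP proteins, and the membrane is retrieved by amphiphysin, dynamin and clathrin. In the embryonic forebrain these genes come on as precursors become neurons, and several of them are used in growth cones before synapses form.

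All differences are on the scale log2(intensity + 16) as HMGN1 virus minus control virus, where intensity is the deposited linear value of a probe set, and this scale understates the change of dim genes. A gene was called detected when its mean over both arrays was at or above a floor of 85.9, and 11325 genes were. The floor is the 95th percentile of probe sets for olfactory receptors, which forebrain cells hardly use. The table had 1 probe set with a single symbol for 36 of the 37 measured members, and the brightest was used for the other. As a measure of scatter within this pair of arrays, probe sets of the same gene differed with an SD of 0.0891 over 683 genes. That SD holds no variation between cultures or RNA preparations. Hmgn1 had an intensity of 348 on the HMGN1 virus array and 229.7 on the control virus array (log2 difference 0.57, rank 3 from the highest of 11325 genes). The sources used here do not tell which stretch of Hmgn1 its probes cover, nor which stretch the virus carries.

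Markers of the labelled cell type were present: 12 of 12 precursor markers and 5 of 5 measured forebrain markers were detected on these arrays. Of all 19938 genes 11325 were detected. Of 12 neuron markers 11 were detected, so the cultures also held cells with neuronal transcripts. Of measured astrocyte and oligodendrocyte markers 6 of 7 and 7 of 8 were detected too, so detection alone does not single out precursors. Defining markers of microglia and endothelium were mostly under the floor, with 1 of 6 and 0 of 5 detected. Of 5 mesenchyme markers 3 were detected, with log2 differences of -0.19 for Col1a1, 0.12 for Col1a2 and 0.042 for Pdgfrb, and summed intensities of 517 with the HMGN1 virus and 513 with the control virus over the 5. In bulk RNA, more cells of a type and more RNA per cell cannot be told apart.

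Of the 37 measured members, 36 were detected, 35 of them above the floor on each array, and Doc2b, a calcium sensor of spontaneous release, was under it on each (56.2 with the HMGN1 virus and 57.1 with the control virus). The differences were small. Among detected members 24 were higher with the HMGN1 virus, 11 were lower and Syt7 had the same value in both columns. The 24 include Slc17a7, which was under the floor on the control virus array. The share higher, 66.7%, is to be read beside 60.1% of all detected genes, and the share lower, 30.6%, beside 38.4%. The median difference of the members was 0.042, and that of all detected genes was 0.027.

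The size counted was 1.2-fold, a log2 difference of 0.26. It was reached by 2 of 36 members in the higher direction, Erc2 and Syt1 (5.56%, beside 1.25% of detected genes), and by 0 in the lower direction (beside 1.06% of detected genes). At 1.5-fold the count was 0 in each direction, beside 0% of detected genes higher and 0.0706% lower. A further comparison used the scatter between probe sets. By it 14 members (38.9%) were more than 0.0891 higher, beside 26.9% of detected genes, and 2 members, Slc17a6 and Cplx2 (5.56%), were more than 0.0891 lower, beside 14% of detected genes. The other 20 members lay within that scatter. Once the trend with gene span, a gene's annotated length including introns, was removed, 8 members were more than 0.0891 higher, beside 17.7% of protein-coding genes, and 5 were more than 0.0891 lower, beside 17.9%. Snap25, Stx1a, Sv2a, Rab3c, Amph and Gad1 were no longer among the first, and Syn2, Syngr1 and Rims2 joined the second. Both the 14 and the 8 include Slc17a7, which was under the floor on the control virus array, so its place among them rests on a bound.

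**Figure D1:**
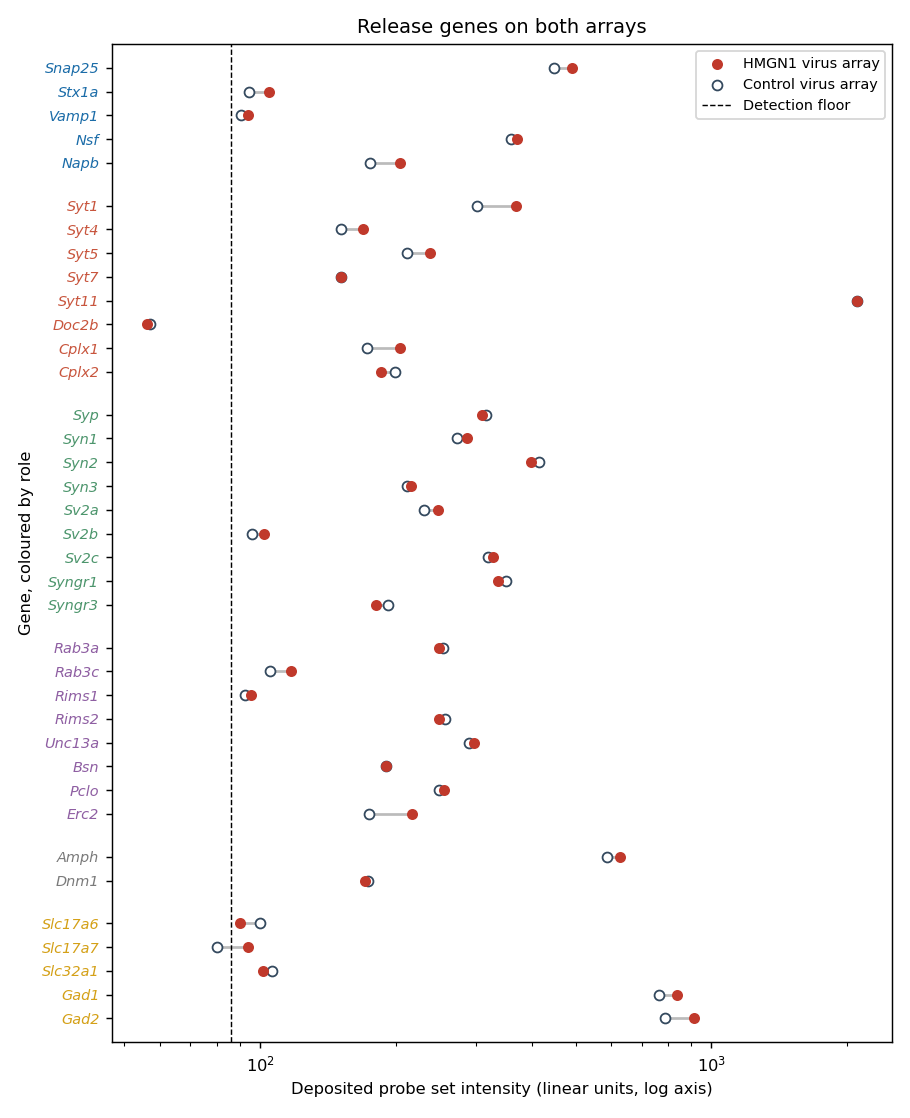
Deposited intensity (linear units on a log axis) of the 37 measured release genes, ordered and coloured by role, with a filled point for the HMGN1 virus array and an open point for the control virus array. The paired points lie close together for most genes, Doc2b lies left of the detection floor of 85.9 (dashed), and Slc17a7 lies on opposite sides of it.

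Windows upstream of the start sites are shown for the members on which the results turn: Erc2 and Syt1, the pair that reached 1.2-fold, Cplx1 and Cplx2, paralogs that differed in direction, and Gad2, which had the highest difference of the transmitter genes. Each window is the 250 bases before the annotated start, read 5′ to 3′ on the gene's strand from the RefSeq tables of build GRCm38.p6, in which 29 of the 38 members had an entry. Capitals mark a match, on either strand, to 1 of 6 short motifs that were searched: the GC box GGGCGG, the cyclic AMP response element core TGACG, the left part CAGCACC and the right part GGACAGC of the REST element RE1, the E-box CACGTG and TATAAA.
Erc2, chr14:27622157-27622406, plus strand: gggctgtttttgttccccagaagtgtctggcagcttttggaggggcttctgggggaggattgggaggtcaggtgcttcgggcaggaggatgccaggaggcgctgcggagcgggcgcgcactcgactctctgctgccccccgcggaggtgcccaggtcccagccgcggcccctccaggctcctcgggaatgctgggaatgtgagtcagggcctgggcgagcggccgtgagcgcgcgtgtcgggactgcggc
Syt1, distal start, chr10:109010976-109011225, minus strand: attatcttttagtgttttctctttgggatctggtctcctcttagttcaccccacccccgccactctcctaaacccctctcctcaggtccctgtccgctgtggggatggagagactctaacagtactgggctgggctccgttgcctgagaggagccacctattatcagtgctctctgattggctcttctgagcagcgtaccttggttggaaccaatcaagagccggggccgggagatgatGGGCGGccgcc
Syt1, second start, chr10:109009112-109009361, minus strand: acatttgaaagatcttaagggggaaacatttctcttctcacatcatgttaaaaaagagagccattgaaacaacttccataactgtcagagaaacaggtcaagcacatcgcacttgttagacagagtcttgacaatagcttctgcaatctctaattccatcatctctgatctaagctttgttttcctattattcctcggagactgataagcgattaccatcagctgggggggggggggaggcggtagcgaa
Cplx1, chr5:108550028-108550277, minus strand: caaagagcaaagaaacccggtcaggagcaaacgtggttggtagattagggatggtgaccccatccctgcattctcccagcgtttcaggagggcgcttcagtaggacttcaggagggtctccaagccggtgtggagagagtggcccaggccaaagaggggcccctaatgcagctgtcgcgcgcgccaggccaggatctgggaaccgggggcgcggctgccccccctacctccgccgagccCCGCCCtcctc
Cplx2, chr13:54302306-54302555, plus strand: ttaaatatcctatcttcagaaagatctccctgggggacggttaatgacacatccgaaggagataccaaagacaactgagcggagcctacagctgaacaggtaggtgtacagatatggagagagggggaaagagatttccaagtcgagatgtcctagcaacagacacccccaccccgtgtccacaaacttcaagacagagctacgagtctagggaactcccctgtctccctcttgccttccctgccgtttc
Gad2, chr2:22622077-22622326, plus strand: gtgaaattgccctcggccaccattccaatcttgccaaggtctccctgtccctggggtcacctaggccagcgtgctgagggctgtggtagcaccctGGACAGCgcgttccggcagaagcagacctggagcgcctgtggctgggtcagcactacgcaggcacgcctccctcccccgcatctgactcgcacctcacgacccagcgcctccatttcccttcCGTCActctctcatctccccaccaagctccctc

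None of the 6 motifs was found in the Erc2 window, the Cplx2 window or the second Syt1 window. The distal Syt1 window and the Cplx1 window each held a GC box 11 bases before the start. The Gad2 window held a cyclic AMP response element core 33 bases and a right RE1 part 155 bases before it. Only exact letters were searched. Just upstream of that right part, the unmarked letters tagcacc differ from the left RE1 part in the first letter. Over the 36 windows of the 29 members, some of which have several starts, 50% held a GC box, beside 32.7% of all 32841 windows. The median share of G and C was 58.6% in member windows, 60.4% in windows of detected genes and 52.4% in all windows. Motif shares over windows of detected genes were not computed, so the GC box shares are not like for like. The response element core was present in 16.7% of member windows and 17.8% of all windows, and the left RE1 part in 5.56% and 5.73%. The right RE1 part was present in 2.78% and 5.29%, the E-box in 5.56% and 6.02%, and TATAAA in 8.33% and 12.4%. A match of this length is a description of the letters and not a binding site.

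CpG dinucleotides, which mark promoters of broadly used genes, had a median of 12 per member window, beside 16 per window of detected genes and 6 over all windows. They ran from 0 in a Sv2b window to 32 in the Bsn window, with 20 for Erc2, 8 and 5 for the Syt1 starts, 15 for Cplx1, 7 for Cplx2 and 13 for Gad2. Across the 29 members the count of CpG and the log2 difference had a Spearman correlation of -0.064, and across 9078 detected genes one of 0.093. Genes on an array share its labelling and hybridisation and are not independent, so these are descriptions.

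The 5 measured genes of the SNARE cycle were higher with the HMGN1 virus, although Nsf was just below 0 (-0.0087) once the trend with gene span was removed. Napb, the SNAP adaptor of brain that brings NSF to used SNARE complexes, had an intensity of 203.5 with the HMGN1 virus and 175 with the control virus (log2 difference 0.20). Snap25, the plasma membrane SNARE cleaved by several botulinum toxins, had 490.1 with the HMGN1 virus and 448 with the control virus (0.13). Its partner Stx1a, syntaxin 1A, had 105 and 94.6 on the same arrays (0.13). These 3 differences exceeded the scatter between probe sets, and with the span trend removed only that of Napb did. Smaller ones were seen for the vesicle SNARE Vamp1, at 94.2 with the HMGN1 virus and 90.6 with the control virus (0.048), and for the ATPase Nsf, at 371 and 359 (0.044).

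Calcium sensors and complexins ran from -0.097 to 0.27, with 4 of 7 detected genes higher, 2 lower and 1 identical. Syt1, the fast calcium sensor of synchronous release, had an intensity of 368 with the HMGN1 virus and 303 with the control virus (log2 difference 0.27, 1.21-fold), rank 124 from the highest of the detected genes. Syt5, a further calcium-binding synaptotagmin, had 238 with the HMGN1 virus and 211 with the control virus (0.16). Syt4, which binds calcium poorly and sits on dense core and post-Golgi vesicles, had 169 and 151 (0.15). So 3 synaptotagmins were higher by more than the scatter between probe sets, and the other pair was level. Syt7, the slow sensor of asynchronous release and facilitation, had 151 in both columns. Syt11, a synaptotagmin that does not bind calcium, had 2099 with the HMGN1 virus and 2101 with the control virus (-0.0014, and 0.0070 after quantile normalization).

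Complexins, small proteins that bind assembled SNARE complexes and both clamp and promote fusion, went in opposite directions. Cplx1 had an intensity of 204 with the HMGN1 virus and 173 with the control virus (log2 difference 0.22). Cplx2 had 185 with the HMGN1 virus and 199 with the control virus (-0.097). The gap between the paralogs was 0.32, and it kept its direction under each alternative setting tried. The brightness of different probe sets cannot be set against each other, so no statement is made on which complexin is more abundant.

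Proteins of the vesicle itself were the flattest group, with 5 of 9 higher, 4 of 9 lower and a median of 0.027, beside 0.027 for all detected genes. Synaptophysin, Syp, the most widely used marker of synaptic vesicles, had an intensity of 311 with the HMGN1 virus and 317 with the control virus (log2 difference -0.026). The synapsins, which tether vesicles in the reserve pool, split between Syn1 at 287 and 273 (0.068), Syn3 at 216 and 212 (0.027, below 0 with the intensity or the span trend removed) and Syn2 at 397 and 414 (-0.058). Each of these pairs gives the HMGN1 virus array before the control virus array, and none differed by more than the scatter between probe sets.

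The SV2 glycoproteins, transporter-like vesicle proteins to which botulinum toxin A binds, were all slightly higher, although Sv2c was below 0 (-0.013) with the span trend removed. Sv2a, the binding site of the antiepileptic levetiracetam, had 248 with the HMGN1 virus and 231 with the control virus (log2 difference 0.098). Sv2b had 102 with the HMGN1 virus and 95.9 with the control virus (0.077), and Sv2c had 329 and 319 (0.039). The synaptogyrins, tetraspan relatives of synaptophysin, were slightly lower. Syngr1 had 336 with the HMGN1 virus and 351 with the control virus (-0.062), and Syngr3 had 181 and 192 (-0.082). A further 2 probe sets, brighter and annotated to Syngr1 together with other genes, were not used and gave -0.015 and -0.012.

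At the active zone, the site of fusion, Erc2 was higher and the other scaffolds were near their control level. Erc2, the ELKS/CAST protein that links RIM, bassoon and piccolo, had an intensity of 217 with the HMGN1 virus and 174 with the control virus (log2 difference 0.29, 1.22-fold). It had the largest difference of any member and rank 90 from the highest of 11325 detected genes. The giant scaffolds that it binds were level, with Bsn at 190.3 with the HMGN1 virus and 189.8 with the control virus (0.0033, below 0 under 4 settings) and Pclo at 256 and 249 (0.038, below 0 with the span trend removed).

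The RIM and UNC13 members lay within the scatter between probe sets. Rims1, a RIM scaffold that gathers calcium channels and vesicles, had 95.4 with the HMGN1 virus and 92.5 with the control virus (log2 difference 0.038, below 0 with the span trend removed), and Rims2 had 249 and 257 (-0.045). Unc13a, the Munc13 priming factor, had 298 with the HMGN1 virus and 290 with the control virus on its brightest probe set (0.040, below 0 with the span trend removed). Its 2 dimmer probe sets gave -0.0050 and -0.0045, so its 3 probe sets were all within the scatter, the dimmest of them under the floor. Of the RAB3 GTPases that carry vesicles to the active zone, Rab3c had 117 with the HMGN1 virus and 105 with the control virus (0.14, past that scatter) and Rab3a had 249.5 and 254 (-0.026).

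For membrane retrieval the set holds 2 genes. Amphiphysin, Amph, which brings dynamin to the necks of budding vesicles, had an intensity of 628 with the HMGN1 virus and 586 with the control virus (log2 difference 0.099). Dynamin 1, Dnm1, the neuronal GTPase that cuts the neck, had 170.3 with the HMGN1 virus and 173 with the control virus (-0.020).

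Of the 5 transmitter genes 3 were higher and 2 lower. Both glutamate decarboxylases, which make GABA, were higher. Gad2 had an intensity of 915 with the HMGN1 virus and 788 with the control virus (log2 difference 0.21), and Gad1 had 837 and 766 (0.13). The vesicular GABA transporter Slc32a1, which loads what they make, did not follow, at 102 with the HMGN1 virus and 106 with the control virus (-0.054). The vesicular glutamate transporters opposed each other: Slc17a7 (VGLUT1) had 94.0 with the HMGN1 virus and 80.2 with the control virus (0.19), and Slc17a6 (VGLUT2) had 90.4 and 100.1 (-0.13). All 3 vesicular transporters lay near the floor of 85.9, and Slc17a7 was above it with the HMGN1 virus and below it with the control virus. Its value on the control virus array is a bound and not a level, so no exact size of its difference is supported.

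**Figure D2:**
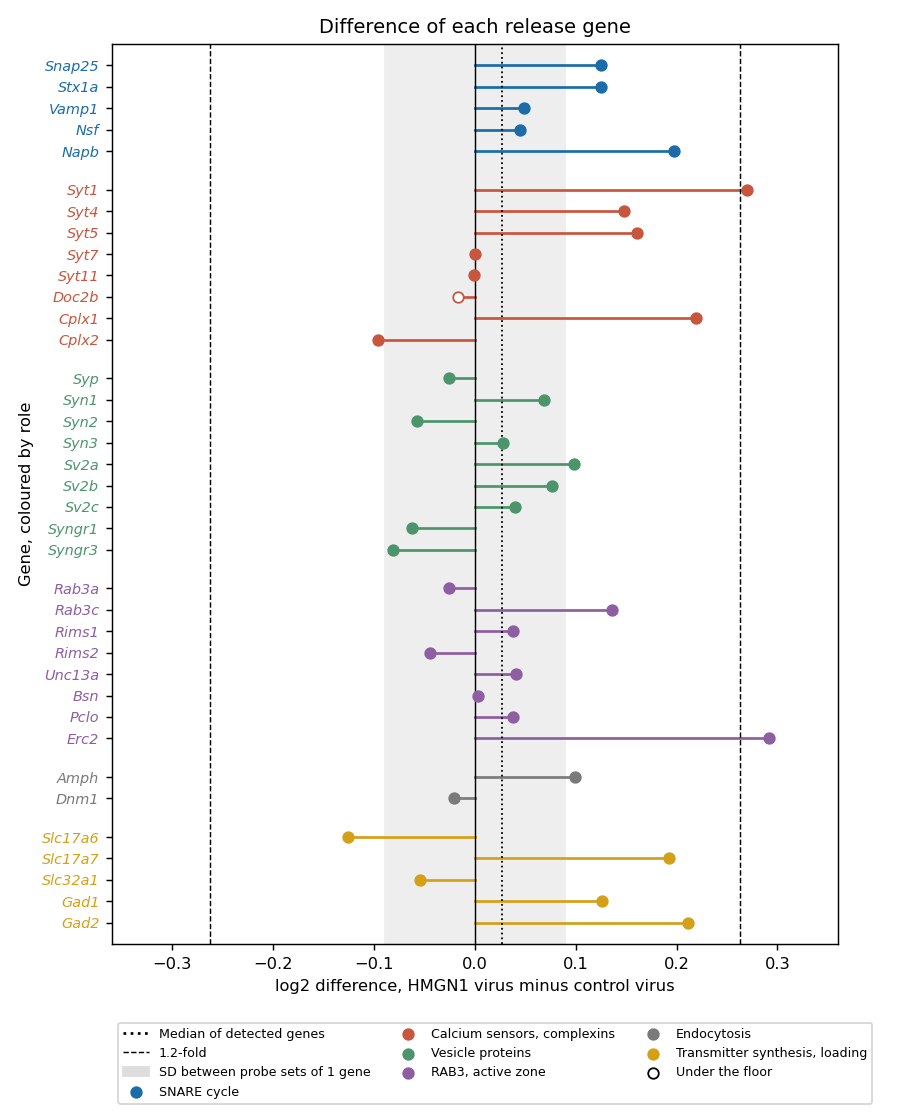
log2 difference (HMGN1 virus minus control virus) of each measured release gene, coloured by role, with the SD between probe sets of the same gene as a grey band, the median of detected genes as a dotted line and 1.2-fold as dashed lines. Erc2 (0.29) and Syt1 (0.27) lie past the upper dashed line, no member lies past the lower, and Slc17a6 (-0.13) is lowest.

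Closely related members did not always share a direction, though many of these differences were within the scatter between probe sets. Past that scatter in both directions were only the complexins and, near the floor, the vesicular glutamate transporters. Of all detected genes 60.1% were higher and 38.4% lower, and how often unrelated genes differ in direction was not computed. In 10 families of paralogs within the set, 4 had all members on the same side of 0 as reported (the SV2 proteins, the synaptogyrins, bassoon with piccolo, and the glutamate decarboxylases). With the span trend removed Sv2c alone of the SV2 proteins was below 0 and bassoon and piccolo were both below 0, whereas Bsn alone was below 0 under 3 other settings. Between the highest and the lowest member, the complexins differed by 0.32, the synaptotagmins by 0.27, the RAB3 proteins by 0.16, the synapsins by 0.13 and the synaptogyrins by 0.019. The gap of the vesicular glutamate transporters is not given, since Slc17a7 was under the floor on the control virus array. A range grows with the number of genes in a family and with the scatter of each, and none of these gaps was tested.

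**Figure D3:**
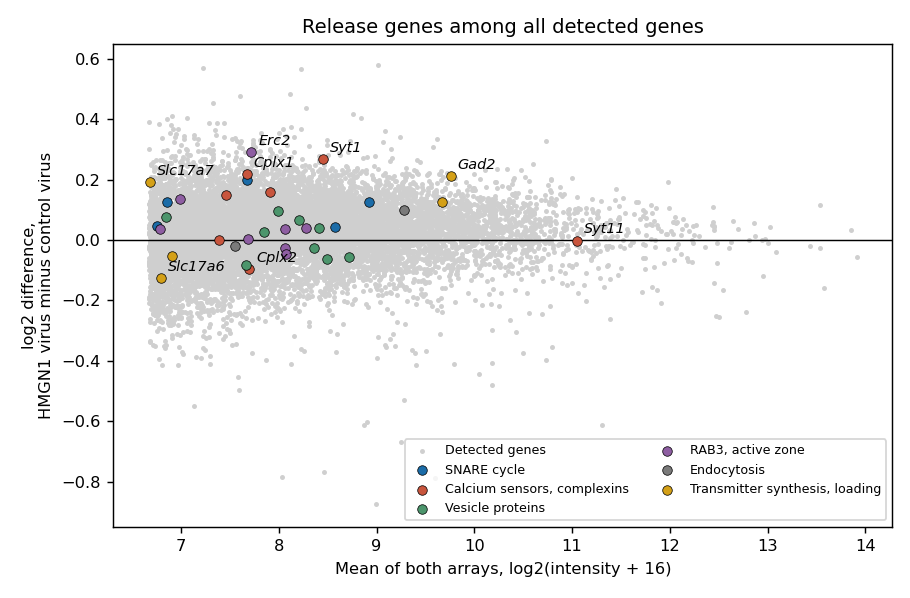
log2 difference (HMGN1 virus minus control virus) against the mean of both arrays for all 11325 detected genes (grey) and the 36 detected release genes (coloured by role). Release genes lie inside the cloud of the other genes at every brightness, with Erc2, Syt1 and Gad2 towards its upper edge and Syt11, the brightest member, at 0.

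Gene span, the distance from annotated start to end with introns, moved with the differences across these arrays. Members were long genes, with a median span of 54.9 kb, beside 23.9 kb for detected genes, and 11 of the 36 fell in the longest decile of detected protein-coding genes (139 to 2390 kb). In that decile the median difference of all genes was 0.053, beside -0.026 in the shortest decile (0.231 to 4.29 kb). The 27 members longer than the median protein-coding gene had 19 higher and 7 lower with a median of 0.040, beside 0.049 for all such genes, of which 69.9% were higher. The 9 shorter members had 5 higher and 4 lower with a median of 0.048, beside 0.0074 for all shorter genes. Of all shorter genes 52.4% were higher. Span and difference had a Spearman correlation of 0.11 across the 36 members and 0.23 across 10880 detected protein-coding genes, given as descriptions since genes on an array are not independent. With the span trend removed the median of the 36 members was -0.0068 and 17 were above 0. Erc2 (856 kb) and Syt1 (513 kb) are among the longest members and had 0.23 and 0.21 after that removal. The part of span in these differences was not tested further.

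**Figure D4:**
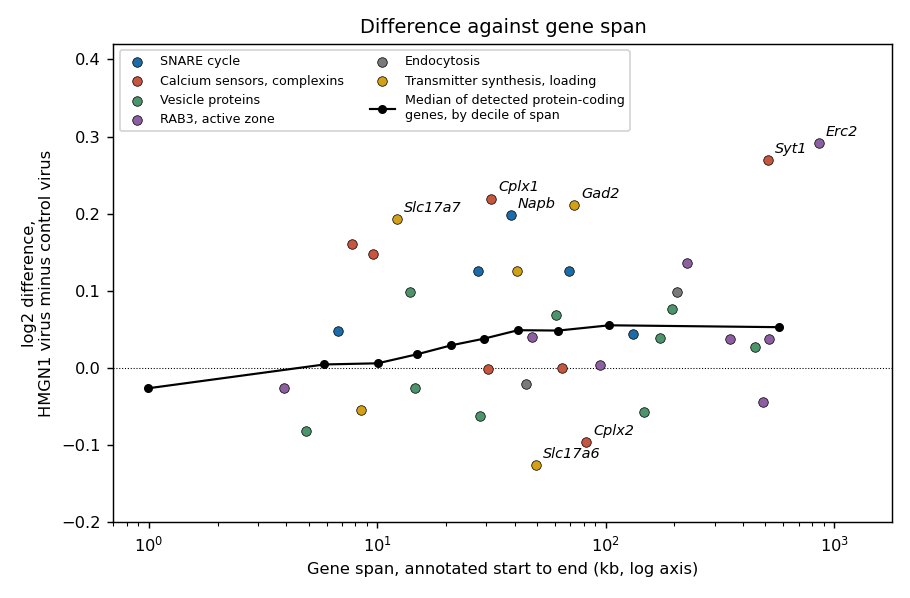
log2 difference (HMGN1 virus minus control virus) of the 36 detected release genes against gene span (kb, log axis), coloured by role, with the median of detected protein-coding genes in each decile of span as a black line. The line climbs from -0.026 in the shortest decile to 0.053 in the longest, and members lie on both sides of it, with Erc2 and Syt1 far above at the right.

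Other genes of the release pathway, 116 in all and with no member among them, were read in the same way. Of 110 measured 81 were detected, 58 of these were higher (71.6%, beside 60.1% of detected genes) and 23 lower, with a median of 0.047. Those at least 1.2-fold higher were Sypl and Slc1a1, and 0 were 1.2-fold lower. Sypl, a broadly used relative of synaptophysin, had an intensity of 222 with the HMGN1 virus and 174 with the control virus (log2 difference 0.33). Slc1a1, the neuronal glutamate transporter EAAC1 of the plasma membrane, had 460.3 with the HMGN1 virus and 363 with the control virus (0.33).

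Endocytosis genes were the most uniform of these lists, with 17 of 17 detected genes above 0, beside 60.1% of all detected genes. Their median was 0.095 and no difference passed 1.2-fold. With the span trend removed, 14 of 17 were above 0 and the median was 0.047. The count depends on which genes were listed. Of the clathrin adaptor AP2 the list holds Ap2a1 (log2 difference 0.032) and Ap2m1 (0.14). It leaves out Ap2a2 (0.027) and the lower Ap2b1 (-0.079) and Ap2s1 (-0.12), all of them detected. The endophilins Sh3gl3 (359 with the HMGN1 virus and 309 with the control virus, log2 difference 0.21) and Sh3gl2 (251 and 218, 0.19), which curve membrane at the bud, were highest. Bin1, the second amphiphysin (0.0053), and Snap91, the clathrin adaptor AP180 (0.014), were lowest. Of the members that serve this step, Amph lay at 0.099 and Dnm1 at -0.020, below all 17.

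Other vesicle genes had 14 of 16 higher, led after Sypl by Atp6v0a1 (log2 difference 0.16), a subunit of the proton pump that powers transmitter loading, with Svopl (-0.13) and Syngr2 (-0.10) at the low end. Other SNARE genes had 10 of 16 higher and a median of 0.033, from the endosomal syntaxin Stx7 (0.14) and Snap47 (0.11) to Napg (-0.081) and Stx4a (-0.053). The 5 measured members of the SNARE cycle, Nsf and Napb among them, had the higher median of 0.13. Other active zone genes had 11 of 19 higher and a median of 0.0073, with Erc1, the paralog of Erc2 (299 with the HMGN1 virus and 262 with the control virus, 0.18), and the liprin Ppfia1 (0.18) highest and Rab3il1 (-0.16) and Rims4 (-0.13) lowest.

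Other calcium sensors were mostly under the floor, with 12 of 19 undetected, and 2 of the 7 detected were higher, Syt9 (log2 difference 0.072) and Syt14 (0.047). Syt13 (-0.23) and Doc2g (-0.20) were lowest, both near the floor, and Syt13 was under it with the HMGN1 virus (85.4). Among other transmitter genes 8 of 14 measured were under the floor, including the monoamine and acetylcholine genes Slc18a1, Slc18a2, Ddc, Dbh, Tph2 and Chat. Of the 6 detected, the glycine transporter Slc6a9 (0.11) came after Slc1a1. The vesicular acetylcholine transporter Slc18a3 (-0.047) and tyrosine hydroxylase, Th (-0.18), were lowest. Slc18a3 and Th were each under the floor with the HMGN1 virus (85.5) and above it with the control virus (88.8 and 99.2). Their values on the HMGN1 virus array are bounds, so no exact size of these differences is supported. Whether any of these lists differs from the members was not tested.

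Other synaptic and cell type lists give the setting of these values. Postsynaptic genes had a median of 0.021 over 21 detected genes, 13 higher and 8 lower, with the glutamate receptor Gria3 (log2 difference 0.26) and the GABA receptor Gabrb1 highest (0.25, from 96.6 with the HMGN1 virus and 78.6, under the floor, with the control virus) and the scaffolds Shank2 (-0.13) and Dlg4 (-0.11) lowest. Neuron markers had 6 of 11 higher and 5 lower with a median of 0.057, and the summed intensity of the 12 markers was 10640 with the HMGN1 virus and 10403 with the control virus. Stmn2 (0.22) was highest and Tubb3, the neuronal tubulin (-0.17), lowest. Precursor markers had 5 of 12 higher, with sums of 26988 and 27129 on the same arrays.

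Astrocyte and oligodendrocyte markers had higher medians than any role of the release genes. Of 6 detected astrocyte markers 6 were higher, with a median of 0.23 and summed intensities of 2172 with the HMGN1 virus and 1785 with the control virus. Of 7 detected oligodendrocyte markers 6 were higher, with a median of 0.31 and sums of 3432 with the HMGN1 virus and 2925 with the control virus. S100b and Mog were the markers of these lists under the floor. The part of these cells in the values of release genes that glia also use was not tested.

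Lists by type of neuron share members with the transmitter genes. The 6 detected markers of glutamate neurons, Slc17a7 among them, had 5 higher and a median of 0.15. Slc17a7, 1 of the 5, was under the floor on the control virus array. Neurod6 was highest (193 with the HMGN1 virus and 161 with the control virus, log2 difference 0.24). The 8 markers of GABA neurons, Gad1 and Gad2 among them, had 5 higher and a median of 0.030, with Npy (-0.19) lowest.

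**Figure D5:**
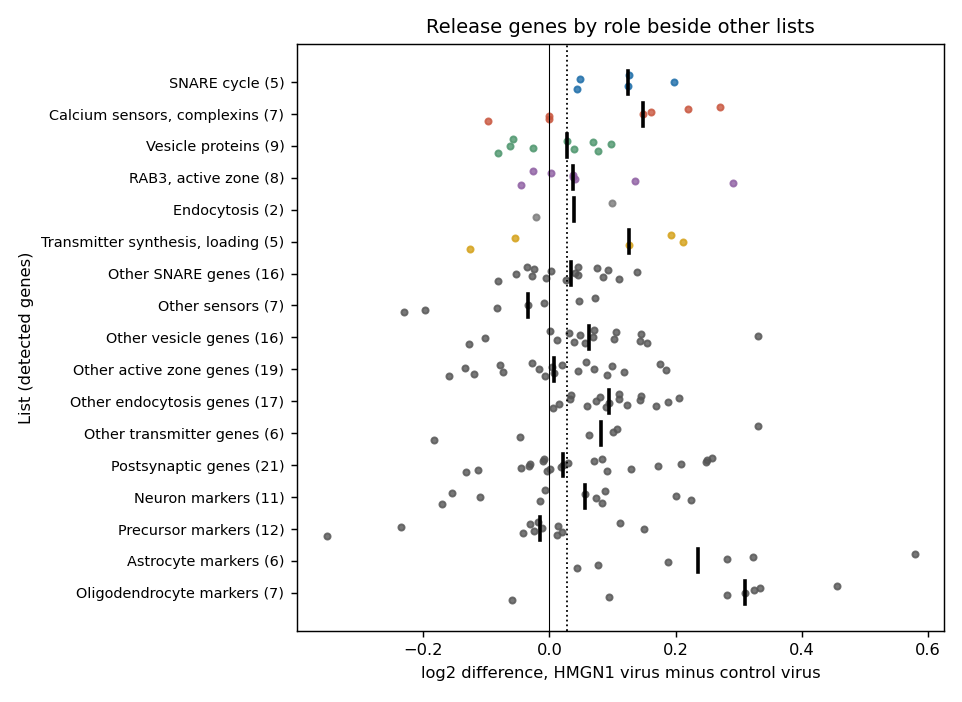
log2 difference (HMGN1 virus minus control virus) of detected genes in each role of the release genes (coloured) and in other lists (grey), with a black bar at each list's median and a dotted line at the median of detected genes, 0.027. Bars of the SNARE, calcium sensor and transmitter roles lie between 0.13 and 0.15, those of the vesicle and active zone roles at 0.027 and 0.038, and those of the astrocyte and oligodendrocyte markers at 0.23 and 0.31.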

How the data were processed

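RNA from 2 samples, 1 per virus, was labelled with the GeneChip whole-transcript kit and hybridised to 1-colour arrays, per the labels' protocols. The authors deposited a linear intensity for each of 28944 probe sets per array. Their background correction, normalization and summary are not given in the sources used here. Column medians were 98.8 (HMGN1 virus) and 101 (control virus).

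Names came from GEO's platform annotation, which gives 1 symbol for 21789 probe sets, several for 1621 and none for 5534. Spans and biotypes came from RefSeq tables of GRCm38.p6 by gene number. The deposited table names no genome build. Values were taken as log2(intensity + 16), each gene by its brightest probe set. Trends were removed by lowess with a span of 0.3, the span trend over 10880 protein-coding genes (Python 3.11.15, pandas 2.3.3, statsmodels 0.14.6). A single array per virus leaves no residual degrees of freedom, so the comparison has no test, and the number of arrays limits the precision. The code was tested on simulated arrays.

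All members were named. From each list of other release genes and the postsynaptic list, the 2 highest, the 2 lowest and any gene past 1.2-fold were named. Members and lists were chosen with earlier results of these data known. Other genes named were chosen after their values were seen.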

Additional observations from a re-analysis of the deposited data

How the results depend on the processing

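The median difference of detected members, 0.042, ran from 0.015 to 0.045 under 9 of the alternatives and was -0.0068 with the gene span trend removed. The count of members lower, 11, became 19 with the span trend removed. The count of members at least 1.2-fold higher, 2, became 1 after quantile normalization and 1 after centring, in each case Erc2, and 0 with the intensity trend removed, with the span trend removed, with an offset of 64 and at 1.5-fold. The change of size and the centring act by construction, since centring takes 0.027 from every difference and left 63.9% of members higher beside 50% of detected genes. For the others the cause was not tested. The count of members at least 1.2-fold lower was 0 under each alternative. Counts by the scatter between probe sets, whose alternatives were added after seeing the data, were 14 higher and 2 lower. They became 8 higher with the span trend removed, and 5 lower with the span trend removed, 5 lower with the intensity trend removed, 4 lower after centring, 1 lower under either of the higher detection floors, and 0 lower with an offset of 64. Of 345 values of single members under the alternatives, 0 moved by more than 0.0891 and 12 changed sign, in 8 members whose reported differences were at most 0.044 in size. No paired analysis was possible because there is a single array per virus, and for the same reason no array could be left out. Low signal limits Vamp1, Rims1, Stx1a, Sv2b and the vesicular transporters, which lie near the floor, and Rab3c, which like them was not detected under either of the higher floors.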
